A study of Mus musculus with 12 samples.

Results

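The comparison is that of C4-HD tumours labelled as 6 h of MFP with C4-HD tumours growing under MPA, and it uses 4 of the 12 arrays of the series. The members were chosen by the source name of each array: 2 arrays carry the 6 h MFP label and 2 carry the MPA label. It is described across the 18193 genes for which a probe set had 1 annotated symbol, and no measured value entered the choice of arrays.

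C4-HD is a transplanted mammary carcinoma of BALB/c mice that was kept on medroxyprogesterone acetate (MPA), a synthetic progestin. In the MPA group the pellet stayed in place, and per the protocols these controls received saline. In the MFP groups the MPA pellet was taken out at a tumour area of 50 mm2 and mifepristone (MFP), an antagonist of the progesterone receptor, was given subcutaneously at 10 mg/kg/day, so MPA removal and mifepristone cannot be told apart in this comparison. A group labelled no MPA, at 48 h and with labels that mention saline, was measured beside 12 h, 24 h and 48 h of MFP, with 2 arrays in each group. No such group was measured at 6 h.

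The 6 h group rests on the sample labels, since the design text names the other times only and states excision after 2 days. Tumours were formalin-fixed and paraffin-embedded, and 200 ng of total RNA went into each labelling. Neither age nor animal is given for an array. Replicates are described as independent, but no label ties them to separate mice, so the spread behind each p-value is that between tumour samples and may be technical. Tumours are whole tissue, and fewer cells of a type cannot be told apart from less RNA per cell. Values are given on the log2 scale relative to MPA, whose arrays average 1 before the log, so the level of a gene is not known and the carcinoma identity could not be checked against absolute marker levels.

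Progestins act through the progesterone receptor, a hormone-dependent transcription factor, and in mammary epithelium this receptor drives proliferation both inside the receptor-positive cell and through secreted factors. Mifepristone occupies the same receptor without full activation, and it also blocks the glucocorticoid receptor. Cyclin D1 and MYC are long-known links from progestin signalling to the cell cycle. MYC is a transcription factor that pairs with MAX and binds the E-box CACGTG, and genes of ribosome assembly and nucleotide synthesis are among its known targets.

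Myc, Ccnd1 and some genes of ribosome assembly were called lower at 6 h. Of the 18193 genes, 228 (1.25%) differed at an adjusted p under 0.05 in limma, of which 171 (0.940% of all genes) were lower and 57 (0.313%) were higher. The called falls had a median log2 fold change of -1.41 and ran from -3.24 to -0.87. For the called rises the median was 1.29, with a range of 0.91 to 6.98. Among the called genes, falls of more than 4-fold were seen in 16 and rises of that size in 2. Several probe sets covered 114 of the called falls, and all were lower in 95 of these. They covered 41 of the called rises, and all were higher in 34 of these. Among all genes the median was 0.02 and the median standard error was 0.27 with n = 2 arrays per group. All 228 called genes had arrays that did not overlap between the groups. Of all genes, 23.1% were above both MPA arrays in both MFP 6 h arrays and 22.0% below both. Without an adjustment, 1557 of the 18193 genes were lower and 1168 higher at a p under 0.05. Counts of lists and families at an unadjusted p are to be read beside these.

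These calls lean on the shared spread of all 12 arrays and on every one of the 4 arrays compared. With the 4 arrays fitted alone, 0 genes passed limma's adjusted threshold, against 2473 at an unadjusted p under 0.05. Leaving out MFP 6 h replicate 1 left 2 called genes, leaving out MFP 6 h replicate 2 left 1, and leaving out MPA replicate 1 or MPA replicate 2 left 68 or 5. Grwd1 alone was called in each of these 4 fits. Without MFP 6 h replicate 1 the other call was Gkn1, a gastric gene, and without MPA replicate 2 the other calls were Ampd2, Timm8a1, Ccdc116 and Myl9. Of the genes described below, those called without MPA replicate 1 were Ampd2, Atad3a, Ctu2, Dkc1, Gar1, Gnl3, Grwd1, Lipt2, Mir1949, Nop56, Set, Slc7a1, Spata5, Timm8a1, Utp18, Ccnd1 and F13a1 among the falls, and Abhd4, Adam1b, Calcoco1, Ypel3 and 2810403D21Rik among the rises. Every other call named below was lost when any 1 of the 4 arrays was left out. Nhp2 and Cited1, not called with all arrays, passed without MPA replicate 1. Such a fit has 1 array in a group, which is assumed to vary like the others.

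**Figure D1:**
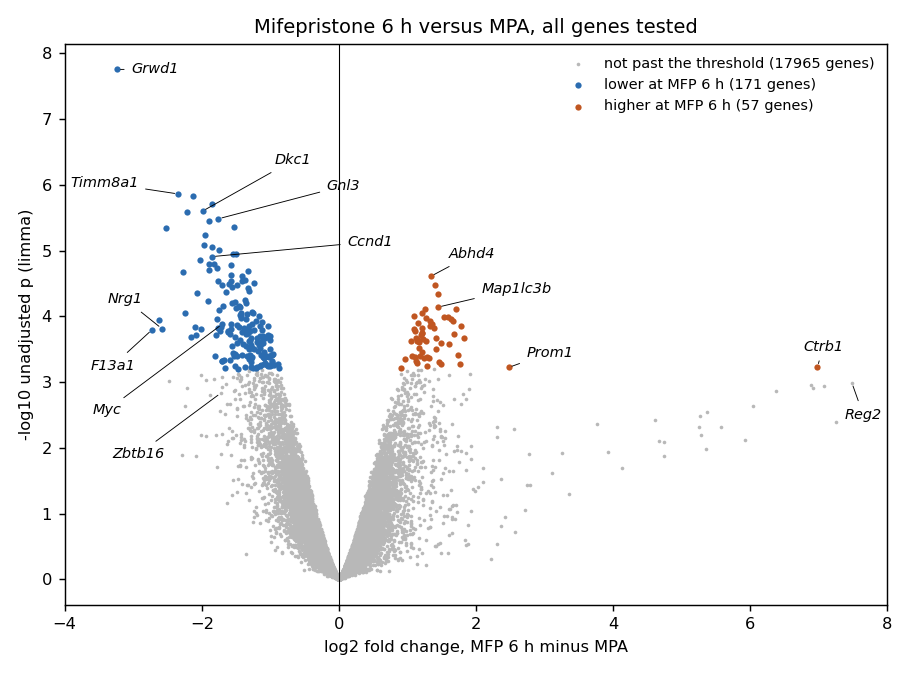
Each point is 1 of the genes tested, with its log2 fold change at MFP 6 h against MPA on the x axis and the negative log10 of limma's unadjusted p on the y axis. The 171 called falls lie between -3.24 and -0.87, with Grwd1 apart from the rest, and the grey points far to the right include Reg2 and other exocrine pancreas genes.

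The promoters below are shown because a larger share of promoters of the called falls held an E-box than of promoters at large, a difference that was not tested. They are RefSeq promoters (GRCm38.p6) of 300 bases, from 250 before to 50 after the annotated start, written on the gene's strand with each CACGTG in capitals. Shown are the 3 called falls of smallest p whose promoter holds a single E-box, followed by the called fall with the most, 3. Grwd1 is on chr7:45830740-45831039 (minus strand), Set on chr2:30061746-30062045 (plus strand), Utp18 on chr11:93885717-93886016 (minus strand) and Apex1, a DNA repair endonuclease, on chr14:50924699-50924998 (plus strand).
Grwd1: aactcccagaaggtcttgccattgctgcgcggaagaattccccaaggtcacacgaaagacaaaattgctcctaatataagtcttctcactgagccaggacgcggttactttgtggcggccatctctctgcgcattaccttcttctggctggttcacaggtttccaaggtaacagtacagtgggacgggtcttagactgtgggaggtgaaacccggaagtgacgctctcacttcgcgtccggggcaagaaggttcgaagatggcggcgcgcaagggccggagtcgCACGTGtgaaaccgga
Set: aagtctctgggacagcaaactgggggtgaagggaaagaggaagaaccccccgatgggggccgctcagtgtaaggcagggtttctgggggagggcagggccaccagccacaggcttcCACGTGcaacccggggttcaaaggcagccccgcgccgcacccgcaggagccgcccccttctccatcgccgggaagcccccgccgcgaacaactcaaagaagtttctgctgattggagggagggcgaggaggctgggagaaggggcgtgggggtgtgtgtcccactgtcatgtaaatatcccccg
Utp18: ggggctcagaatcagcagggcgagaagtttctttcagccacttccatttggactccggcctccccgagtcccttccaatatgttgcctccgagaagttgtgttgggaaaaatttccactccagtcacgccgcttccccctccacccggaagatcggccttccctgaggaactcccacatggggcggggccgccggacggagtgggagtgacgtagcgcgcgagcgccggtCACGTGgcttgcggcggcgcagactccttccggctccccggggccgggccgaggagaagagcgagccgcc
Apex1: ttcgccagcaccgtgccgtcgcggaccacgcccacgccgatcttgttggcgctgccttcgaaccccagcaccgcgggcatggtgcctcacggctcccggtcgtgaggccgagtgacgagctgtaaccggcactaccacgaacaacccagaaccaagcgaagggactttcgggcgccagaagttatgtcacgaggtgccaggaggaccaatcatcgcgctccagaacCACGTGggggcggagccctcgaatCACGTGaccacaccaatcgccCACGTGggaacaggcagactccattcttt

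Counting from the start site, the E-box begins at base 34 in Grwd1, at -134 in Set and at -20 in Utp18. CACGTG, which reads the same on both strands, was present in 35 of 165 promoters (21.2%) of 141 called falls, in 4 of 61 promoters (6.56%) of 48 called rises and in 1580 of 18109 promoters (8.72%) of 14452 genes tested. The median GC content of the same 3 sets was 61.7%, 57% and 58.3%. TGTTTAC, a forkhead motif, was found on either strand in 3.64%, 4.92% and 2.98% of these promoters. The steroid receptor half-site TGTTCT was found in 13.9%, 18% and 14.7%. Genes with several promoters count once for each, and a match describes the letters in the window, not a bound site.

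Grwd1, which encodes a WD-repeat protein of ribosome assembly, had the largest fall and the smallest p of all genes. Its values in the MFP 6 h arrays were -3.09 and -3.39, against 0.01 and -0.01 in the MPA arrays. Both treated arrays lie far below both controls, and the log2 fold change was -3.24 ± 0.21 (limma, adjusted p = 0.000319), which is 9.44-fold lower. All 3 of its probe sets were lower. Dkc1, the pseudouridine synthase dyskerin that modifies ribosomal RNA, read -2.03 and -1.96 at 6 h and 0.10 and -0.11 under MPA (log2 fold change -1.99 ± 0.21, limma adjusted p = 0.00783). Gnl3, the nucleolar GTPase nucleostemin, read -1.61 and -1.90 (-1.76 ± 0.19). Spata5, an ATPase that recycles factors from maturing large ribosomal subunits, read -2.30 and -2.74 (-2.52 ± 0.29). The groups do not overlap in these genes, which the rule that named them required.

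The list of MYC partners and ribosome biogenesis genes had 8 of 28 measured members called lower and none higher, beside 0.940% of all genes lower. Its median log2 fold change was -1.06, beside 0.02 for all genes, and 19 members were below both MPA arrays, a position held by 22.0% of all genes. The 8 were Myc, Dkc1, Gnl3, the nucleolar scaffold gene Nolc1 (-2.25 ± 0.36), Nop56 (-1.86 ± 0.23), Nop58 (-1.51 ± 0.23), the small-subunit processome gene Wdr43 (-1.50 ± 0.24) and Odc1 (-1.30 ± 0.24), the first enzyme of polyamine synthesis. By array, the list's median was -0.75 and -1.04 at 6 h against 0.03 and -0.03 under MPA. Of the MAX partners that oppose MYC, Mxi1 stood at 0.77 ± 0.29 and did not pass (adjusted p = 0.245 in limma). Without MPA replicate 1 the list kept 3 calls, and without any other 1 of the 4 arrays it had 0, with medians between -1.09 and -0.73.

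The gene families below, within ribosome assembly and outside it, were grouped by symbol after their values had been seen. The lists were chosen with earlier results of these data known. Counts of families and lists alike describe and support nothing further. The box C/D and H/ACA particles guide methylation and pseudouridylation of ribosomal RNA. Of their 7 core protein genes, 5 were called lower, beside 0.940% of all genes, namely Dkc1, Nop56, Nop58, Gar1 (-1.50 ± 0.19) and Nop10 (-1.28 ± 0.25). The remaining members stood at -1.44 ± 0.31 for the methyltransferase gene Fbl and -1.40 ± 0.35 for Nhp2, and all 7 were below both MPA arrays, beside 22.0% of all genes. Of 11 Utp genes of the small-subunit processome, 3 were called lower, beside 0.940% of all genes. These were Utp6 (-1.77 ± 0.29), Utp18 (-1.58 ± 0.22) and Utp4 (-1.31 ± 0.22), and the family median was -1.02. Of 8 Rrp genes 0 passed limma's adjusted threshold, and the median was -0.68. At an unadjusted p under 0.05, 4 of the Rrp genes were lower, beside 1557 of all 18193 genes. Among 5 RNA polymerase I subunit genes, Polr1e was the member called lower (-2.02 ± 0.26), beside 0.940% of all genes, and the median was -0.54. Ddx21, a nucleolar helicase, read -1.94 and -1.85 (-1.89 ± 0.25).

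For the finished parts of the ribosome the medians lay nearer to 0 than for its assembly factors. Of 45 genes for cytosolic ribosomal proteins 1 was called lower, Rpl12 (-1.75 ± 0.28), beside 0.940% of all genes, with a family median of -0.09. Of the 45, 17 were below and 4 above both MPA arrays, beside 22.0% and 23.1% of all genes. At an unadjusted p under 0.05, 9 were lower and 0 higher, beside 1557 and 1168 of all 18193 genes. For 76 mitochondrial ribosomal protein genes the median was -0.45. Of these 4 were called lower, beside 0.940% of all genes, and 54 were below both MPA arrays, beside 22.0%. Mrpl15, 1 of the 4 (-1.66 ± 0.34), correlated over the 8 arrays outside this comparison with the median of the skeletal muscle genes (r = 0.834), given as a description. Among 47 genes of translation initiation factors 2 were called lower, beside 0.940% of all genes. These were the cap-binding protein gene Eif4e (-1.10 ± 0.22) and Eif1a (-1.08 ± 0.19). None of the 15 genes of cytosolic aminoacyl-tRNA synthetases and none of the 40 proteasome genes passed limma's adjusted threshold. Their medians were -0.54 and -0.26. At an unadjusted p under 0.05, 9 and 7 of them were lower, beside 1557 of all 18193 genes. The difference between families was not tested.

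**Figure D2:**
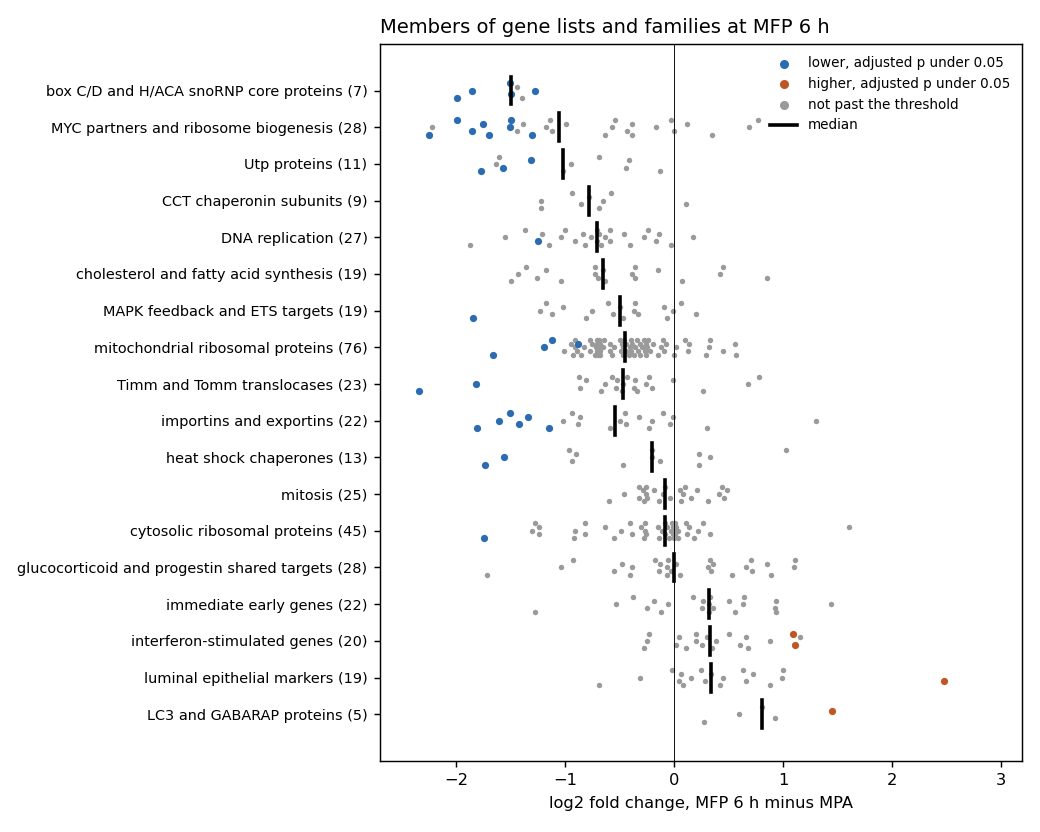
Each point is the log2 fold change of 1 gene at MFP 6 h against MPA, in rows by list or family with the number of measured genes in brackets, coloured where limma's adjusted p was under 0.05, and the bar is the row's median. The row medians run from -1.50 for the snoRNP core proteins to 0.81 for the LC3 and GABARAP proteins, with mitosis at -0.08.

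Myc itself read -1.32 and -2.08 after 6 h of MFP and 0.05 and -0.05 under MPA. Both treated arrays are low, with a gap between them, and the log2 fold change was -1.70 ± 0.29 (limma adjusted p = 0.0283). Ccnd1, the gene of cyclin D1, which starts the cell cycle with CDK4 and CDK6, read -1.95 and -1.76 against -0.07 and 0.07. Its groups do not overlap either, the log2 fold change was -1.85 ± 0.24 (limma adjusted p = 0.0132), and all 3 of its probe sets were lower. Of the 21 G1 cyclins and CDK inhibitors no other passed, beside 1.25% of all genes called. Cdkn1a, the gene of the inhibitor p21, stood at 0.56 ± 0.23 (adjusted p = 0.285). Rbl2, the gene of the pocket protein p130, stood at 1.04 ± 0.23 (adjusted p = 0.0663).

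Most DNA replication genes lay below MPA at 6 h, and 1 of 27 was called lower, beside 0.940% of all genes. That was Mcm2, a subunit of the replicative helicase, at -1.32 and -1.19 against -0.16 and 0.14 under MPA (log2 fold change -1.25 ± 0.20, limma adjusted p = 0.0267). Of the 27 genes, 22 were below both MPA arrays, beside 22.0% of all genes, and the median was -0.71. At an unadjusted p under 0.05, 15 of the 27 were lower, beside 1557 of all 18193 genes. The largest differences in this list were those of the origin-firing kinase gene Cdc7 (-1.88 ± 0.44, adjusted p = 0.0731) and the loading factor gene Cdc6 (-1.56 ± 0.44). Called falls outside the list included Ung, which removes uracil from DNA (-2.06 ± 0.30), the polymerase delta gene Pold1 (-1.09 ± 0.21) and Tipin of the replication fork (-1.30 ± 0.22), named after their values were seen.

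Of 25 mitosis genes none passed limma's adjusted threshold, beside 1.25% of all genes. An unadjusted p under 0.05 was seen in 0 of them, beside 2725 of all 18193 genes. In this list 5 were above and 8 below both MPA arrays, beside 23.1% and 22.0% of all genes. The list's median was -0.08. Mki67, the proliferation marker, read 0.27 and -0.14 against -0.05 and 0.05, so the groups overlap (0.07 ± 0.40). The mitotic kinase gene Plk1 stood at 0.44 ± 0.26.

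The amino acid transporter gene Slc7a1 read -2.10 and -1.85 against 0.07 and -0.07 (-1.97 ± 0.24, limma adjusted p = 0.0124), with all 3 probe sets lower. Slc7a5, the large neutral amino acid transporter, read -1.69 and -0.88 and differed more between its arrays (-1.28 ± 0.26, limma adjusted p = 0.0485). Ampd2, an AMP deaminase of purine metabolism, read -1.87 and -1.85 (-1.85 ± 0.19). Ctu2, which helps to thiolate transfer RNA, read -1.78 and -2.02 (-1.90 ± 0.21). Further falls, named after their values were seen, were Ctps (-1.23 ± 0.17) and Gart (-1.73 ± 0.29), of pyrimidine and purine synthesis, and Srm, of spermidine synthesis (-1.69 ± 0.26).

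Of 22 importin, exportin and Ran genes 6 were called lower, beside 0.940% of all genes: Xpo4 (-1.81 ± 0.35), Ipo5 (-1.61 ± 0.28), Kpnb1 (-1.51 ± 0.29), Ran (-1.42 ± 0.23), Ipo7 (-1.34 ± 0.23) and Ranbp1 (-1.15 ± 0.23). Ranbp17, which this grouping by symbol left out, was called higher (1.16 ± 0.19). Timm8a1, a chaperone of the mitochondrial intermembrane space, read -2.55 and -2.15 against 0.11 and -0.12 under MPA. The arrays are well separated (-2.34 ± 0.23, limma adjusted p = 0.00783). Timm9, of the same chaperone system, was also called (-1.82 ± 0.24). Of 23 Timm and Tomm genes these 2 were called lower, beside 0.940% of all genes, and 17 were below both MPA arrays, beside 22.0%. Atad3a, a membrane ATPase of mitochondria, read -2.17 and -2.09 with all 4 probe sets lower (-2.12 ± 0.21), and Lipt2, an enzyme of mitochondrial lipoate synthesis, read -1.78 and -2.15 (-1.95 ± 0.23).

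Of 13 heat shock genes 2 were called lower, beside 0.940% of all genes. These were the mitochondrial chaperonin gene Hspd1, at -1.62 and -1.50 (-1.56 ± 0.24), and the Hsp110 gene Hsph1, at -1.57 and -1.92 (-1.74 ± 0.30). Hsp90aa1, whose product holds steroid receptors ready for hormone, stood at -0.90 ± 0.22 (adjusted p = 0.0884). None of the 9 CCT chaperonin genes passed limma's threshold, 8 of them were below both MPA arrays, beside 22.0% of all genes, and their median was -0.78. At an unadjusted p under 0.05, 6 of the 9 were lower, beside 1557 of all 18193 genes. Set, a histone chaperone and inhibitor of the phosphatase PP2A, fell with little spread, at -1.59 and -1.48 (-1.53 ± 0.17).

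**Figure D3:**
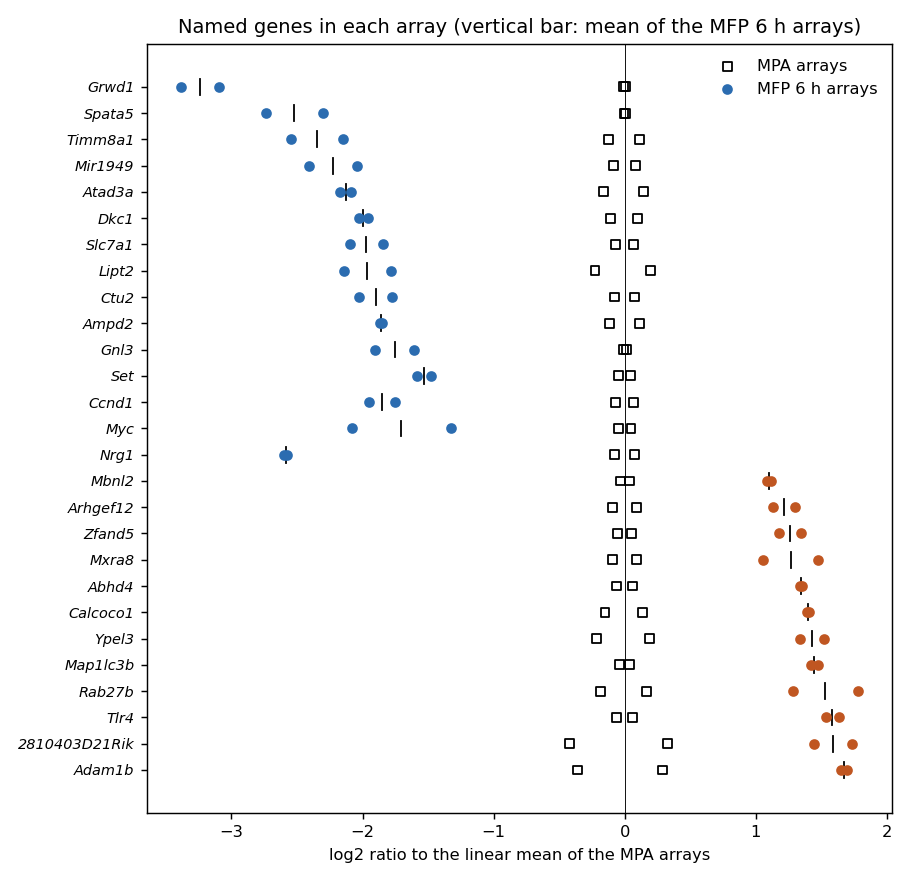
Each row is a gene and each point 1 array, as a log2 ratio to MPA, with MPA arrays as open squares and MFP 6 h arrays as filled circles. The rows are the 12 falls and 12 rises of smallest p with Ccnd1, Myc and Nrg1 between them. In each row both treated arrays lie on the same side of both control arrays, as in every called gene. The 12 falls and 12 rises were named only where this held.

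Signalling upstream of the cell cycle was represented by single genes. Nrg1, a ligand of the ERBB3 and ERBB4 receptors, read -2.60 and -2.57 at 6 h and -0.08 and 0.08 under MPA. The treated arrays agree closely (-2.58 ± 0.44, limma adjusted p = 0.0283). Nrg1 was the member called among 30 growth factors and receptors, beside 0.940% of all genes called lower. Among 19 MAPK feedback and ETS target genes Ccnd1 was the member called, beside 0.940% of all genes called lower. Of the 19, 10 were below both MPA arrays, beside 22.0% of all genes, and the median was -0.50. None of 22 immediate early genes passed limma's adjusted threshold, and 10 were above both MPA arrays, beside 23.1% of all genes. At an unadjusted p under 0.05, 3 of the 22 were higher and 1 lower, beside 1168 and 1557 of all 18193 genes. The antiproliferative gene Btg2, at 1.11 and 1.66, had the smallest p of the immediate early genes (1.44 ± 0.31, adjusted p = 0.0587).

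Known steroid targets were followed by lists. Of 23 progestin-responsive genes Ccnd1 and Myc were called lower, beside 0.940% of all genes, and the list's median was -0.14. Tnfsf11, the gene of the paracrine mediator RANKL, read 0.06 and -0.45 against -0.45 and 0.34 and overlapped (-0.14 ± 0.28), and Wnt4, another progestin-induced ligand gene, stood at 0.41 ± 0.39. Of the 28 genes that glucocorticoids and progestins share as targets, none passed limma's adjusted threshold, beside 1.25% of all genes. At an unadjusted p under 0.05, 5 were higher and 3 lower, beside 1168 higher and 1557 lower of all 18193 genes. Zbtb16, a zinc finger factor strongly induced by both hormones, read -1.54 and -2.02 against 0.35 and -0.47 without overlap, and did not pass (-1.72 ± 0.40, adjusted p = 0.0714). Fkbp5, a chaperone partner of steroid receptors, read -1.33 and -0.82 (-1.04 ± 0.26, adjusted p = 0.0893), and Rgs2, a regulator of G protein signalling, read -1.12 and -0.75 (-0.93 ± 0.20, adjusted p = 0.0596).

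Of the other glucocorticoid targets named, Per1 stood at 0.02 ± 0.23, Sgk1 at -0.17 ± 0.33 and Tsc22d3 at 0.36 ± 0.47. For Tsc22d3 the treated arrays read 0.85 and -0.22, on either side of the control mean. Pgr, the gene of the progesterone receptor, read 1.0 and 0.53 against -0.17 and 0.15, and did not pass (0.78 ± 0.29, adjusted p = 0.239). Esr1, the estrogen receptor gene, stood at 0.09 ± 0.24. None of 17 genes of steroid receptors and cofactors, 19 estrogen-responsive genes or 17 clock genes passed limma's threshold, beside 1.25% of all genes. At an unadjusted p under 0.05 these lists had 3, 2 and 3 genes higher and 3, 2 and 4 lower. Of all 18193 genes, 1168 were higher and 1557 lower at that p.

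Of 19 cholesterol and fatty acid synthesis genes none passed limma's adjusted threshold, 14 were below both MPA arrays, beside 22.0% of all genes, and the median was -0.66. At an unadjusted p under 0.05, 8 of the 19 were lower, beside 1557 of all 18193 genes. The largest differences in this list were those of Msmo1 (-1.50 ± 0.44) and Idi1 (-1.43 ± 0.43), and the smallest p was that of Fasn, the fatty acid synthase gene (-0.73 ± 0.18, adjusted p = 0.0868).

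Called rises numbered 57. Abhd4, a lipase of N-acyl phospholipids, had the smallest p among them, with 1.33 and 1.35 at 6 h and 0.06 and -0.06 under MPA (1.34 ± 0.19, limma adjusted p = 0.0159). Calcoco1, a receptor for autophagy of the endoplasmic reticulum, read 1.39 and 1.41 against 0.14 and -0.15 (1.41 ± 0.20). Map1lc3b, the LC3B protein of the autophagosome membrane, read 1.42 and 1.47 with all 4 probe sets higher (1.45 ± 0.23). It was the 1 called of 5 LC3 and GABARAP genes, a family grouped after its values were seen, beside 0.313% of all genes called higher. All 5 were above both MPA arrays, beside 23.1% of all genes, with a median of 0.81. Over the 8 arrays outside this comparison Map1lc3b correlated with the median of the exocrine pancreas genes (r = 0.854), given as a description of arrays that share those genes.

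Ypel3, of a small conserved family linked to growth arrest, read 1.52 and 1.34 against 0.19 and -0.21 (1.44 ± 0.21), and its 4 relatives were at 0.56 or above and did not pass. Zfand5, a ubiquitin-binding zinc finger gene, read 1.17 and 1.34 (1.26 ± 0.20), with 6 of its 7 probe sets higher and 1 lower. The splicing regulator gene Mbnl2 read 1.08 and 1.11 (1.10 ± 0.18) and Arhgef12 read 1.30 and 1.13 (1.22 ± 0.19). Membrane and vesicle genes followed: Rab27b, a GTPase of secretory vesicles, at 1.78 and 1.28 (1.54 ± 0.25), and the lipopolysaccharide receptor gene Tlr4 at 1.64 and 1.53 (1.58 ± 0.26). Of the 4 Tlr4 probe sets 3 were higher and 1 lower. Mxra8 (1.27 ± 0.21), Adam1b (1.71 ± 0.27) and the unnamed transcript 2810403D21Rik (1.64 ± 0.27) completed the 12 rises of smallest p. For 2810403D21Rik 3 of 4 probe sets were higher and 1 lower. None of these 12 rises passed when either MFP 6 h array or MPA replicate 2 was left out. Of the 12 falls of smallest p, all 12 passed without MPA replicate 1, 3 without MPA replicate 2, and 1 without either MFP 6 h array.

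Prom1, a luminal progenitor marker, read 1.89 and 2.83 against 0.46 and -0.69 (2.48 ± 0.51, limma adjusted p = 0.0490), and over the 8 other arrays it correlated with the medians of pancreas (r = 0.837) and liver genes (r = 0.811). It was the member called of 19 luminal markers, beside 0.313% of all genes called higher. Of the 19, 13 were above both MPA arrays, beside 23.1% of all genes, and the median was 0.34. The epithelial raft protein gene Mal read 1.48 and 2.09 (1.83 ± 0.33), Clmn 1.42 and 2.13 (1.78 ± 0.30), the transcription factor gene Pou2f3 2.37 and 1.15 (1.77 ± 0.36), and Plet1 1.71 and 1.70 (1.74 ± 0.34). Krt8, a keratin of luminal cells, stood at 0.16 ± 0.26, and its groups do not overlap. Of 20 interferon-stimulated genes 2 were called higher, beside 0.313% of all genes. These were Oasl2 (1.10 ± 0.19) and the RNA sensor gene Ddx58 (1.11 ± 0.19). Of the 20 genes, 10 were above both MPA arrays, beside 23.1% of all genes.

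Cell types other than the carcinoma were followed by marker lists. F13a1, the coagulation factor XIII subunit that tissue macrophages express, read -3.29 and -2.63 at 6 h and -1.08 and 0.61 under MPA (-2.73 ± 0.47, limma adjusted p = 0.0283). Its control arrays differ from each other more than its treated ones do. The macrophage list behaved alike in the controls, with medians of -0.90 and 0.55 in the MPA arrays and -0.62 and -0.53 at 6 h, and none of its 17 genes passed limma's threshold or had an unadjusted p under 0.05. The 19 fibroblast and matrix genes had medians of -0.87 and 0.54 under MPA and -0.76 and -0.05 at 6 h. The part of these cells in the fall of F13a1 was not tested.

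Genes of the exocrine pancreas included Reg2, which had the largest rise of any gene tested. All 19 measured were above both MPA arrays, beside 23.1% of all genes, with log2 fold changes from 2.77 to 7.48. By array their medians were 5.73 and 4.36 at 6 h against 0.45 and -0.66 under MPA, and they were 0.12 and 0.87 in the 12 h arrays. Digestive enzyme gene Ctrb1, at 6.96 and 5.87, was the member called (6.98 ± 1.43, limma adjusted p = 0.0485), beside 0.313% of all genes called higher. Reg2 did not pass (7.48 ± 1.65, adjusted p = 0.0605). The 23 liver genes had medians of 1.16 and -0.86 at 6 h and 0.81 and -2.0 under MPA. In the 15 skeletal muscle genes the medians were 0.28 and 0.48 at 6 h and 0.08 and -0.09 under MPA. With 1665 genes that follow these organs over the other 8 arrays left out, 319 genes were called, including 222 of the 228.

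**Figure D4:**
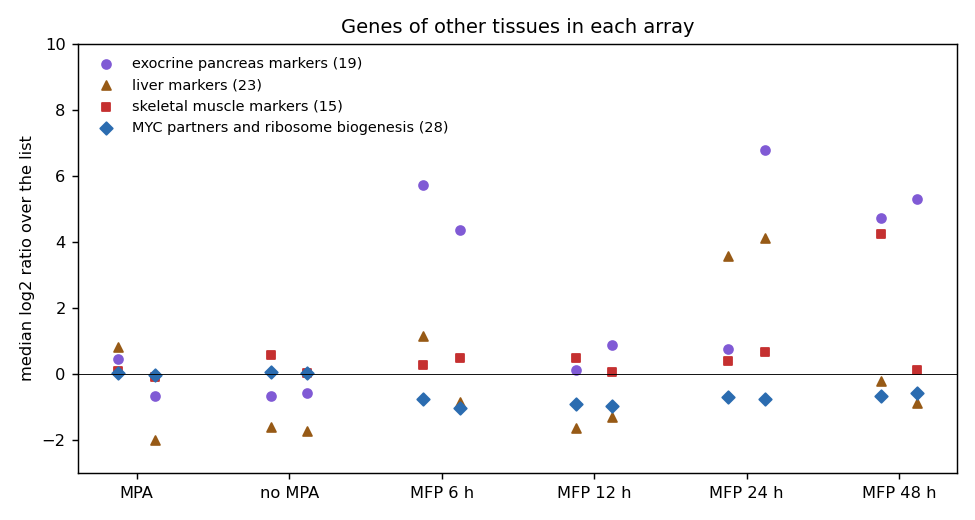
Each point is the median log2 ratio of a gene list in 1 array, by group on the x axis, for exocrine pancreas, liver, skeletal muscle and ribosome biogenesis genes. The pancreas list is at 5.73 and 4.36 in the MFP 6 h arrays and at 0.12 and 0.87 at 12 h. The ribosome biogenesis list is below 0 in all 8 MFP arrays.

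The Actb 3' minus 5' difference rises as RNA is broken, and like all values here it is relative to MPA. At 6 h it averaged 0.16 ± 0.05 (SD, n = 2). The MPA average of -0.01 ± 0.09 is largely fixed by that scale and does not show how intact the MPA RNA was. The difference averaged 0.35 at 12 h and 0.53 at 48 h. Its part in the differences was not tested. Between replicate arrays the differences over all probe sets had an SD of 0.41 at 6 h and 0.51 under MPA.

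The later MFP groups show how the 6 h values continued. The genes called lower at 6 h had medians of -1.38 and -1.40 in the 6 h arrays. The 12 h medians were -1.27 and -1.24, those at 24 h were -0.96 and -0.90, and those at 48 h were -0.84 and -0.83. In the no MPA arrays, which are of 48 h, they were at -0.15 and -0.18. The genes called higher had medians of 1.31 and 1.29 at 6 h. Their 12 h medians were 1.16 and 1.24, those at 24 h were 0.73 and 0.70, and those at 48 h were 0.43 and 0.45. Those without MPA, also at 48 h, were 0.31 and 0.23. Genes chosen for being far from MPA at 6 h had to be extreme there, so these medians are given as a description.

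Between 6 h and 12 h limma called 0 genes (0%), with 1348 at an unadjusted p under 0.05 and a smallest adjusted p of 0.307. Fitted on these 4 arrays alone, limma called 5. Between 6 h and 48 h 1286 genes (7.07%) were higher and 834 (4.58%) lower, a contrast that uses the same 6 h arrays as the comparison with MPA. Without 1 of its 4 arrays that count of 2120 fell to 1186 (MFP 48 h replicate 1), 1258 (MFP 48 h replicate 2), 815 (MFP 6 h replicate 1) or 740 (MFP 6 h replicate 2). After quantile normalization 37 were called, 17 higher and 20 lower. With the genes of other organs left out it was 832 in each direction.

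Single genes took different courses after 6 h. Grwd1, at -3.09 and -3.39 after 6 h, read -2.02 and -1.94 after 12 h and -0.40 and -0.62 after 48 h. Ccnd1 was at -0.67 and -0.40 at 48 h, nearer to MPA than at 6 h. The Myc arrays read -1.75 and -1.71 after 12 h and -1.80 and -1.12 after 48 h (48 h minus 6 h, limma: 0.24, adjusted p = 0.675). Zbtb16 and Rgs2 went further down, to -3.54 and -4.03 and to -2.47 and -2.74 at 48 h (48 h minus 6 h, limma: -2.0, adjusted p = 0.0110, and -1.67, adjusted p = 0.00255). Mki67, at the MPA level at 6 h, was at -0.51 and -1.02 at 12 h and -1.40 and -2.10 at 48 h (48 h minus 6 h, limma: -1.81, adjusted p = 0.0168). Mcm2 was lowest at 12 h, at -1.90 and -1.79.

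**Figure D5:**
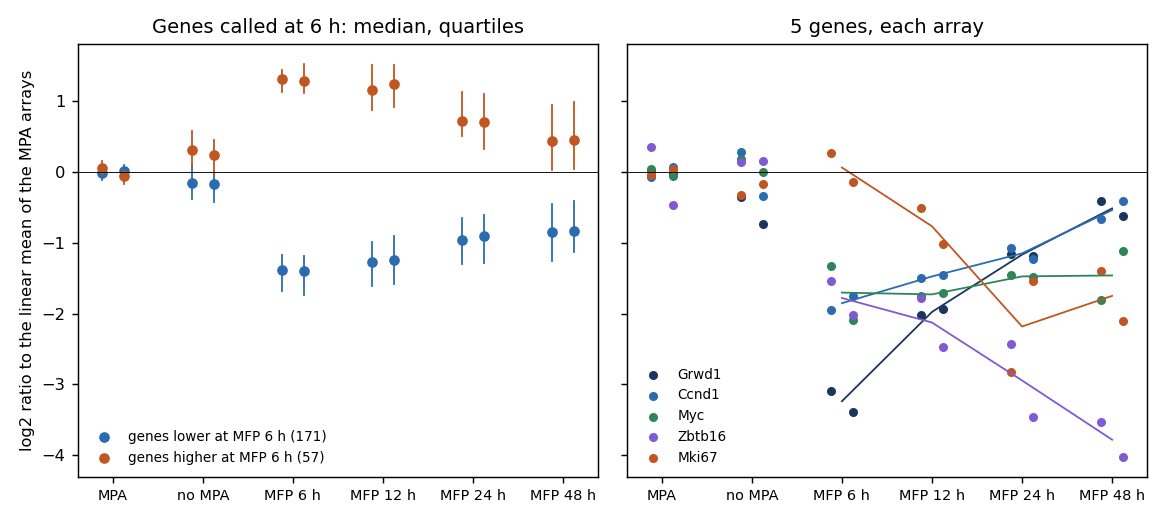
The left panel shows the median and quartiles, in each array by group, of the 171 genes called lower and the 57 called higher at MFP 6 h, and the right panel each array's log2 ratio for 5 genes, with lines through the means of the MFP groups. Grwd1 and Ccnd1 return towards 0 by 48 h, Myc is at -1.80 and -1.12 there, and Mki67 and Zbtb16 are lower at 48 h than at 6 h.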

How the data were processed

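RNA of C4-HD tumours was measured on 12 Affymetrix mouse expression arrays. The authors deposited log2 values, processed with GCRMA per the submitters' processing notes (version not given in the sources used here). In 45099 of 45101 probe sets the MPA pair averages 1 once unlogged (tolerance 1e-04), so the deposited log2 values are ratios to MPA, and levels, signal over background and a filter on low values were out of reach. The number of arrays limits the precision.

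The platform annotation gives 1 symbol to 34945 probe sets, several to 932 and none here to 9160, beside 64 controls. For each of 18193 genes (9010 with more than 1 probe set) the probe set of greatest SD across the 12 arrays was used, which favours probe sets that change. This SD replaced the planned rule of highest mean level, which ratios do not allow. Near-identical family members are not told apart by the array. Groups follow the source names. limma 3.58.1 in R 4.3.3 fitted 6 group means over 12 arrays (6 residual and 4.21 prior degrees of freedom), with Benjamini-Hochberg adjustment over all genes and a threshold of 0.05. Each ± after a log2 fold change is limma's standard error. Adjusted p-values are limma's throughout. An exact permutation test of 2 against 2 arrays cannot go below p = 0.333. The script was tested on simulated data.

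Among called genes whose arrays do not overlap, named genes were the 12 of smallest p and the 6 of largest fold in each direction. Also named were up to 3 called members per direction of each of 36 lists or the one of smallest p, and 14 fixed genes. Members and lists were chosen with earlier results of these data known. The lists hold 703 genes, of which 650 were measured, and the rest were not analysed here. Alternatives were other probe set rules, centring, quantile normalization, robust and weighted fits, gene filters, the 4 arrays alone and leaving out each array.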

Additional observations from a re-analysis of the deposited data

Results flagged for a closer look

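For 24 of the 42 named genes called at 6 h, the difference between 48 h and 6 h of MFP itself passed limma's adjusted threshold. These differences share the 6 h arrays with the comparison to MPA, and a gene named for an extreme 6 h value tends to move back. Of the 2120 calls between 48 h and 6 h over all genes, 37 remained after quantile normalization, and 740 to 1258 genes were called with 1 array left out. Among the genes low at 6 h, 48 h minus 6 h was 4.90 for F13a1, 2.73 for Grwd1, 2.09 for Spata5, 2.02 for Atad3a, 1.6 for Ampd2, 1.34 for Lipt2, 1.32 for Ccnd1, 1.23 for Timm8a1, 1.11 for Gnl3 and 1.11 for Slc7a1. It was 0.93 for Ctu2, 0.88 for Dkc1, 0.85 for Mcm2 and 0.85 for Set. F13a1 passed from below MPA to above it, at 1.93 and 1.94 in the 48 h arrays.

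Among the genes high at 6 h the difference was -1.89 for Zfand5, -1.69 for Clmn, -1.55 for Adam1b, -1.51 for Pou2f3, -1.46 for Calcoco1, -1.41 for Plet1, -1.22 for Ypel3, -1.03 for Arhgef12 and -0.72 for Ddx58. Rab27b went the other way and was higher still at 48 h, by 1.07. Zfand5 also crossed the MPA level, at -0.71 and -0.55 in the 48 h arrays.

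Of the 10092 probe sets that have no single gene symbol, which the gene tests do not use, 64 were called at 6 h against MPA when tested in the same way, 25 higher and 39 lower.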

How the results depend on the processing

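Of 585 values of the 42 named genes called at 6 h, under 14 alternatives, 361 stayed past the threshold. All kept their direction. Where the same values are fitted again or an array is left out, arrays that do not overlap fix the direction, so it is no sign of stability there. Settings that use other probe sets or quantile normalization do not fix it. The count of 228 genes at 6 h against MPA was 0 with the 4 arrays alone and 70 after quantile normalization (16 higher, 54 lower), and ran from 1 to 68 when 1 array was left out. It was 322 for the mean of a gene's probe sets, 320 with each probe set tested and 176 to 319 under the other alternatives. From 6 h to 12 h the count of 0 became 5 with the 4 arrays alone and 0 to 2 with 1 array left out. From 6 h to 48 h the count of 2120 was 1361 with the 4 arrays alone, 37 after quantile normalization and 740 to 1258 with 1 array left out. The share of higher genes there, 60.7%, was 50.0% without genes of other organs and 45.9% after quantile normalization. Fewer arrays leave fewer degrees of freedom. Values are ratios to the MPA mean, and the MPA columns are narrower than the others. Quantile normalization gives all columns the same width. The cause of the moves in these counts was not tested. Among 511 values of named genes not called, 10 were past the threshold and 12 turned sign, the latter all with 1 array left out: Mki67 (-0.14 to 0.27), Tsc22d3 (-0.18 to 0.89), Esr1 (-0.18 to 0.36), Per1 (-0.10 to 0.14), Sgk1 (-0.76 to 0.41), Tnfsf11 (-0.53 to 0.25) and Jchain (-0.0082 to 1.41). No paired analysis was possible because the arrays carry no replicate numbers in their labels.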

Other observations

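Several called genes of other functions were named after their values were seen. Retnla, a secreted product of alternatively activated macrophages, read -1.84 and -2.37 at 6 h (-2.10 ± 0.36, limma adjusted p = 0.0283). Cyp27a1, a mitochondrial sterol hydroxylase, read -2.12 and -1.49 (-1.79 ± 0.32), and Dapk1, a death-associated kinase, read -1.31 and -1.60 (-1.45 ± 0.23). Among the rises, the caspase-8 regulator gene Cflar read 1.46 and 1.31 (1.39 ± 0.24). Cpt1a, which passes fatty acids into mitochondria, read 1.23 and 1.13 (1.19 ± 0.21), and Il6st, the shared receptor chain of the interleukin-6 family, read 1.2 and 1.01 (1.12 ± 0.22). The lysosomal peptidase gene Tpp1 read 0.84 and 1.07 (0.96 ± 0.19).

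The lists of hypoxia, apoptosis and p53, TGF-beta with Notch and Wnt, JAK-STAT, cytokine, basal, neutrophil, lymphocyte, endothelial, adipocyte and epidermis genes had no member past limma's adjusted threshold at 6 h. At an unadjusted p under 0.05 the apoptosis and p53 list had 4 higher and 4 lower of 20 genes, and each of the others named here had at most 1 in a direction. Of all 18193 genes, 1168 were higher and 1557 lower at that p. In the JAK-STAT and involution list 0 of 22 genes were above and 3 below both MPA arrays, beside 23.1% and 22.0% of all genes. Trp53inp1, a p53 target of the stress response, read 0.98 and 1.34 (1.18 ± 0.26, adjusted p = 0.0604). Stc2, a secreted glycoprotein that estrogen raises, read -1.82 and -1.91 (-1.82 ± 0.39, adjusted p = 0.0591). Without MPA it was on the other side of MPA, at 1.10 and 2.24, but at 48 h and not at 6 h. The probe set annotated to Mir1949 read -2.41 and -2.04 (-2.22 ± 0.24, adjusted p = 0.00783), and the mature microRNA was not measured. AI506816, 1 of the 6 called falls of largest fold, read -2.52 and -2.73 at 6 h (-2.63 ± 0.43, limma adjusted p = 0.0275).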
